A study of Mus musculus with 33 samples.

Results

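By day 2 of reprogramming with Sox2, Klf4 and Myc (SKM), mouse embryonic fibroblasts (MEFs) had 13286 H3K27ac peaks that lay where no H3K27ac peak had been called on day 0 and where no Sox2 peak was called on day 2. They were 31.6% of the 42025 day 2 H3K27ac peaks. A region was taken when it shared no base (overlap under 1 bp) with any day 0 H3K27ac peak or any Sox2 peak of either replicate, on chromosomes without "random" in their name. The regions were thus chosen by the measured peak calls for H3K27ac and Sox2, and the count describes that choice. The day 2 cells carried the label SKM secondary MEF and had been kept for 2 days in mouse ES medium with doxycycline, which switches on inducible factors. The day 0 cells carried the label OG2 MEFs and were grown in fibroblast medium. Day, cell line and medium therefore cannot be told apart in any statement about gain. H3K27ac was mapped in 1 sample per day, Sox2 in 2 samples and Klf4 in 2 samples on day 2, all by ChIP-seq, which sequences DNA recovered with an antibody. With 1 H3K27ac sample per day there is no replicate spread for the mark, so no test was made and every difference below describes these libraries. The gene and the base sequence at each region were not analysed here, and regions are given by mm9 coordinates.

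H3K27ac, acetylation of a lysine in the tail of histone H3, is placed by the acetyltransferases p300 and CBP on nucleosomes at active enhancers and promoters. Sox2 is an HMG-box factor of stem cells and neural progenitors that can bind DNA in closed chromatin, and Klf4 is a zinc finger factor that binds GC-rich sites. A bound factor commonly occupies a stretch poor in nucleosomes, and the acetylated nucleosomes lie on either side of it.

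The gained regions that carried no Sox2 peak lay close beside one. The median distance from their edge to the nearest Sox2 peak of either replicate was 136 bp, with quartiles of 50 and 1308 bp. Of the 13286 regions, 5647 (42.5%) lay within 100 bp of a Sox2 peak, 8917 (67.1%) within 500 bp and 9711 (73.1%) within 1000 bp. The exact 95% interval of the last share was 72.3 to 73.8%, which covers counting error only, and neighbouring regions are not independent. The rule set no upper limit on the distance, but it used the same Sox2 peak calls, so the distances describe the chosen regions. Peak width also enters, as a wide peak beside Sox2 can reach into it and leave the class. The median width was 298 bp for the gained regions without Sox2 and 497 bp for the kept ones. The part of width in the distances was not tested. H3K27ac peaks kept from day 0 that had no Sox2 peak, 15086 regions of the same day 2 list, lay at a median of 5164 bp, and 4210 of them (27.9%) were within 1000 bp. The 46044 H3K27ac peaks of day 0 that were lost by day 2 and had no Sox2 peak lay at a median of 10131 bp from one, and 3299 (7.16%) were within 1000 bp. With these same classes, which were chosen on both Sox2 libraries, the order held for the distance to each library alone. To the peaks of replicate 1 alone the gained regions had a median distance of 276 bp, against 9633 bp for the kept ones and 14518 bp for the lost ones. To those of replicate 2 alone the medians were 198 bp for gained, 7702 bp for kept and 12190 bp for lost regions.

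**Figure D1:**
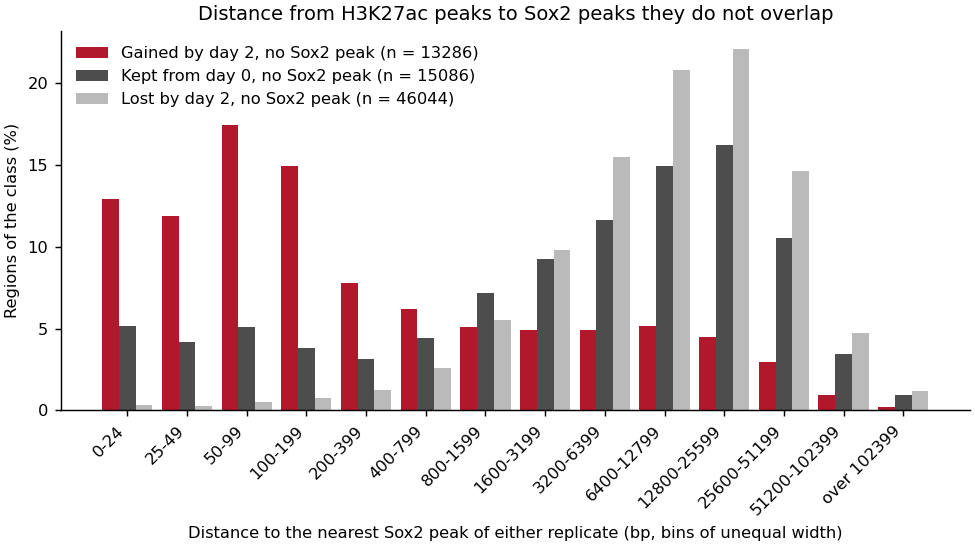
Share of the regions of each class (y axis, percent) by distance to the nearest Sox2 peak they do not overlap (x axis, bp, bins of unequal width). Red bars are the 13286 gained regions without a Sox2 peak, dark grey the 15086 kept regions and light grey the 46044 lost regions. The red bars are highest below 200 bp and the grey ones between 3200 and 51199 bp.

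Taking all 20825 gained peaks together, 7539 (36.2%) overlapped a Sox2 peak and the 9711 regions above, or 46.6%, lay within 1000 bp of one without overlapping it. That left 3575 gained peaks (17.2%) farther away. Among the 21200 day 2 peaks kept from day 0, 28.8% overlapped Sox2, 19.9% lay within 1000 bp and 51.3% were farther away. Among the 48401 day 0 peaks lost by day 2, 4.87% overlapped Sox2, 6.82% lay within 1000 bp and 88.3% were farther away. More of the gained peaks thus lay within 1000 bp of a Sox2 peak without overlap than overlapped one. This order depends on the distance taken, as only 5647 lay within 100 bp without overlap, fewer than the 7539.

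The highest points of the H3K27ac signal, the summits, come from the same peak calls as the edge distances and give no separate support. Relative to the nearest Sox2 summit of replicate 1, 7700 of the 13286 gained regions without Sox2 had their H3K27ac summit less than 1000 bp away. The median offset among these was 426 bp, with quartiles of 352 and 548 bp, and the fullest 100 bp bin was 300 to 400 bp, with 18.7% of all the regions. For replicate 2 the numbers were 8335 regions, 424 bp (quartiles 349.5 and 546 bp) and 20.0% in the same bin. The summits fell evenly on the sides, with 3841 on the higher and 3859 on the lower coordinate side in replicate 1, and 4167 and 4168 in replicate 2. Small offsets were scarce, as the rule leaves out regions that reach into a Sox2 peak. The gap at the centre is therefore not a result for these regions. The size of their offsets is also limited by the rule and the peak widths. Gained regions that did overlap a Sox2 peak, which the rule does not push away, also had their summits to the side. A summit less than 1000 bp away was found for 91.4% of them in replicate 1 and 94.7% in replicate 2. The median offsets among these were 339 and 331 bp. Of all gained regions with a Sox2 peak, 9.64 and 10.5% had the summit less than 200 bp from that of Sox2. That these offsets are smaller than those of the regions without a Sox2 peak is set by the rule. Summits to the side were not particular to gained regions. Kept regions that overlapped a Sox2 peak had median offsets of 335 and 334 bp in replicates 1 and 2. These medians cover the 77.2 and 81.3% of them with a summit less than 1000 bp away. Of all kept regions with a Sox2 peak, 8.64 and 9.22% had the summit less than 200 bp away. Only 2443 of the 15086 kept regions without Sox2 (16.2%) had a summit less than 1000 bp away in replicate 1, and 2705 (17.9%) in replicate 2. The medians among these were 437 and 435 bp.

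**Figure D2:**
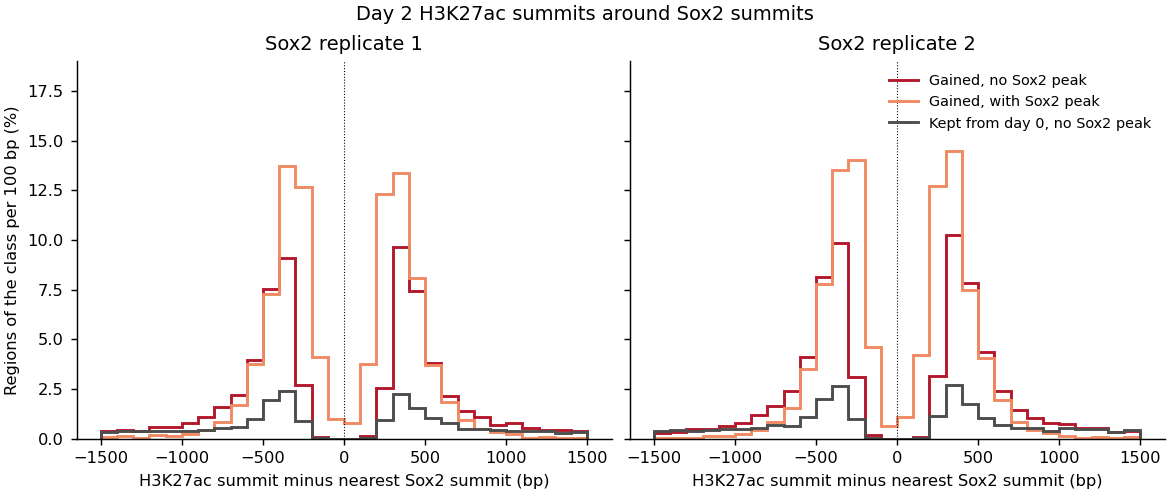
Distance from the nearest Sox2 summit to the H3K27ac summit (x axis, bp, positive towards higher coordinates) for each Sox2 replicate, as the share of each class per 100 bp (y axis, percent). Gained regions without (red) and with (orange) a Sox2 peak form a hump on each side of the dotted line at 0, with the fullest bins at 300 to 400 bp in the red curve, and kept regions without Sox2 (grey) form lower humps at the same place.

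Seen from Sox2, the replicate peaks merged into 57502 regions. A gained H3K27ac region without Sox2 lay within 500 bp of 8045 of them (14.0%), on the lower coordinate side of 4640 and the higher side of 4613. At 1208 Sox2 regions such H3K27ac regions stood on both sides, and 2393 of the 13286 regions (18.0%) took part in such a pair. Kept H3K27ac peaks without Sox2 stood within 500 bp of 3139 Sox2 regions (5.46%) and on both sides of 354. The space between the paired gained regions, with the Sox2 region inside it, had a median of 568 bp (quartiles 457 and 727 bp), the Sox2 regions themselves a median width of 369 bp, and the remaining gap on a side a median of 72 bp. Of these 1208 Sox2 regions, 1034 (85.6%) had no H3K27ac peak over them on either day, as had 42318 (73.6%) of all Sox2 regions. The rule keeps the paired regions off Sox2 and the gaps beside it are small, so the higher share is not read as a result. Of the 42318 Sox2 regions, 5120 (12.1%) had a gained region within 500 bp. A count of Sox2 regions without H3K27ac by overlap therefore holds 5120 with the mark gained next to them. Their share of 12.1% was below the 14.0% of all Sox2 regions. Of the 6816 Sox2 regions that overlapped a day 2 and no day 0 H3K27ac peak, 2506 (36.8%) had a gained region without Sox2 within 500 bp.

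The 5 pairs that follow, taken for the highest fold enrichment of their weaker H3K27ac region, show the scale. Fold enrichment here is the value that the authors' peak caller MACS2 gave a peak over its local background. On chromosome 3, Sox2 lay at chr3:86607558-86607993 with a fold enrichment of 4.18 in replicate 1 and 5.25 in replicate 2. It had H3K27ac at chr3:86606649-86607481 (fold enrichment 11.8) and at chr3:86608016-86608870 (12.7), 76 and 22 bp from its edges. On chromosome 19, the Sox2 region chr19:45622571-45622963 stood between chr19:45621146-45622458 (fold enrichment 11.2) and chr19:45623125-45624457 (18.7), with 112 and 161 bp between. The second pair on that chromosome, around Sox2 at chr19:28486323-28486633, was the tightest of these, with H3K27ac regions of fold enrichment 11.2 and 10.3 only 349 bp apart. Sox2 at chr3:100383285-100383547 had H3K27ac regions of fold enrichment 10.3 and 10.1 at 305 and 105 bp. Sox2 at chr16:28979020-28979538, the strongest Sox2 region of these with 10.1 and 7.77 in the replicates, had regions of fold enrichment 10.2 and 10.1 at 13 and 104 bp.

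Among Sox2 regions with no H3K27ac peak over them, flanked ones had higher median Sox2 enrichment than unflanked ones in both replicates, with quartile ranges that overlapped. Those with gained regions on both sides had a median Sox2 fold enrichment of 5.62 in replicate 1 and 6.16 in replicate 2. Those with 1 on a single side had 5.39 and 5.90, and those with none within 500 bp had 4.94 and 5.25. Each median covers only the regions with a peak in that replicate, and this part differed between the groups. In replicate 1 it was 860 of the 1034 flanked on both sides and 23380 of the 37198 unflanked. In replicate 2 it was 941 and 31432 of the same groups. Under a gained H3K27ac peak the order was not seen. There, the 165 Sox2 regions flanked on both sides had medians of 5.54 in replicate 1 and 5.84 in replicate 2, and those flanked on a single side and those unflanked both had 5.62 and 6.16. The calls in both replicates were counted over all Sox2 regions, whatever H3K27ac lay over them. Of those flanked on both sides, 74.5% were called in both replicates, as were 71.2% of those flanked on a single side and 50.5% of the rest.

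**Figure D3:**
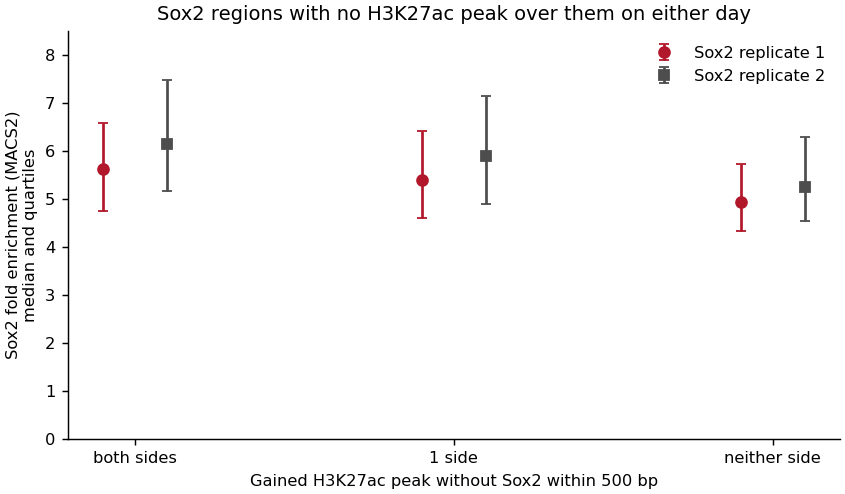
Sox2 fold enrichment (y axis, MACS2 value) of Sox2 regions with no H3K27ac peak over them, by the number of sides with a gained H3K27ac region within 500 bp (x axis). Points are medians and bars run from the lower to the upper quartile for Sox2 replicates 1 and 2. Each covers only regions with a peak in that replicate. The medians are 5.62 and 6.16 with both sides flanked, and 4.94 and 5.25 with neither.

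The gained regions without Sox2 had the lowest median fold enrichment and width of the 4 classes of day 2 peaks, though every class reached down to peaks as weak and as narrow. The rule used the same peak calls, so these values describe the regions and support nothing. Their fold enrichment ran from 2.78 to 24.7 with a median of 5.11 (quartiles 4.45 and 6.22). Gained regions with Sox2 had a median of 6.97 (quartiles 5.48 and 9.20), kept regions without Sox2 7.34 (5.19 and 12.5) and kept regions with Sox2 11.3 (7.34 and 17.0). The median width was 298 bp, against 428, 497 and 733 bp in those classes in the same order. Ranked by fold enrichment, gained regions without Sox2 were 55.9% of the weakest of 10 equal groups of day 2 peaks and 0.619% of the strongest, which held 26 of them. Their median -log10 q, the caller's score against background, was 4.38, and 4749 of them (35.7%) reached 5, against 71.5% of the gained regions with Sox2. With the regions ranked into 5 equal groups by fold enrichment, the share within 1000 bp of a Sox2 peak lay between 70.0% in the weakest group and 75.8% in the fourth, with 73.4% in the strongest.

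**Figure D4:**
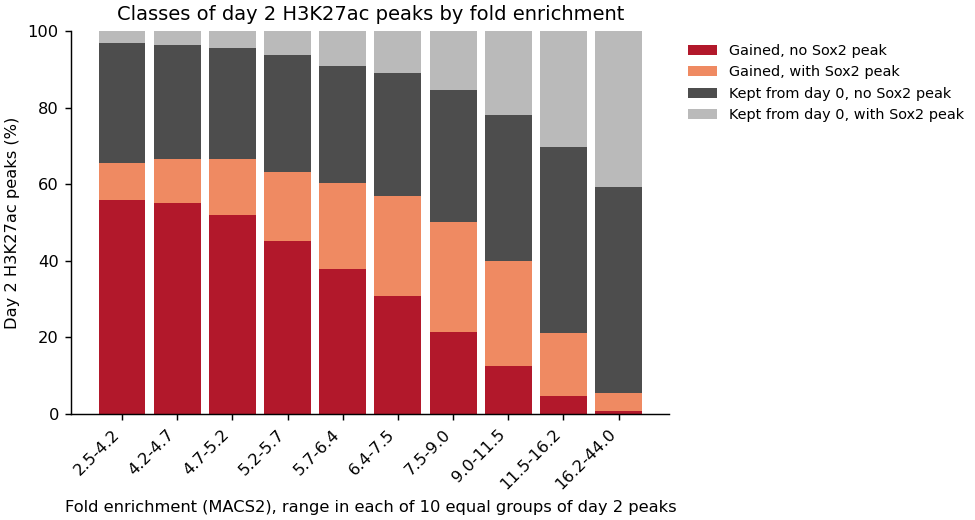
Make-up of the day 2 H3K27ac peaks (y axis, percent) in 10 equal groups ranked by fold enrichment (x axis, range in each group, weakest at the left). Gained regions without Sox2, in red at the bottom of each bar, make up 55.9% of the weakest group and 0.619% of the strongest.

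At the edge of the rule, 3360 gained regions lay 0 to 50 bp from a Sox2 peak, 72 of them touching it, with a median fold enrichment of 5.66. Another 2923 gained regions overlapped a Sox2 peak by only 1 to 50 bp and were left out, with a median of 6.46. At the day 0 edge the numbers were small, with 101 regions 0 to 50 bp from a day 0 H3K27ac peak (median fold enrichment 4.92) and 104 regions without Sox2 that overlapped one by 1 to 50 bp (4.73).

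The rule removed regions that overlapped a day 0 H3K27ac peak, and the distance of the remaining ones from such a peak varied widely. The median distance to the nearest day 0 H3K27ac peak was 11316 bp (quartiles 3096 and 32556 bp). In all, 1685 regions (12.7%) had one within 1000 bp, and 1079 (8.12%) lay more than 100000 bp from any. The like shares of the other classes are not given here. For gained regions with Sox2 the median was 14443 bp, farther than for those without. Sorting by both neighbours, 8616 regions (64.9%) had Sox2 within 1000 bp and no day 0 peak, 1095 (8.24%) had both, 590 (4.44%) had a day 0 peak only and 2985 (22.5%) had neither.

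The 3575 regions more than 1000 bp from any Sox2 peak, 26.9% of all, had a median fold enrichment of 5.11 (upper quartile 6.22) and a median width of 289 bp. The regions within 100 bp of Sox2 had 5.48 (6.60) and 323 bp, and those from there to 1000 bp had 4.92 (5.79) and 273 bp. They lay closer to day 0 H3K27ac, at a median of 7995 bp, against 12807 bp for those near Sox2. More than 10 kb from Sox2 were 1418 regions (10.7%). The strongest of these was chr17:75409972-75410714, 743 bp wide with a fold enrichment of 19.4, 59713 and 50486 bp from the nearest Sox2 peaks of replicates 1 and 2. The next was chr5:128112599-128113390 with a fold enrichment of 18.7, at 19370 and 11242 bp. The third, chr5:142926760-142927714 with 17.5, lay 10001 and 10056 bp from Sox2 and overlapped a Klf4 peak of replicate 1.

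Klf4 peaks rarely fell on the gained regions without Sox2. The Klf4 samples carry the same Sox2 antibody label as the Sox2 samples and are given here under their titles, and which factor was recovered was not tested. Their lists are also weak: 7 of 6013 peaks in replicate 1 and 0 of 5966 in replicate 2 reached a q-value under 0.05, 21.3 and 21.7% of the peaks overlapped one of the other replicate, and 76.3 and 66.4% overlapped Sox2. A Klf4 peak overlapped 44 gained regions without Sox2 (0.331%) in replicate 1 and 36 (0.271%) in replicate 2, against 2.76 and 2.35% of all day 2 H3K27ac peaks. As most Klf4 peaks overlapped Sox2, the rule that removes Sox2 overlaps itself lowers this count. Gained regions with Sox2 gave 3.25 and 2.97%, kept regions without Sox2 1.29 and 1.10%, and kept regions with Sox2 11.0 and 9.19%. Within 1000 bp, a Klf4 peak of replicate 1 was found for 1461 gained regions without Sox2 (11.0%), and one of replicate 2 for 1268 (9.54%). These shares were still below the 13.4 and 11.8% of all day 2 H3K27ac peaks. They were above those of kept regions without Sox2 (7.60 and 6.65%). Gained regions with Sox2 had 18.1 and 16.7%, and kept regions with Sox2 27.3 and 23.6%. Of the 2245 gained regions with a Klf4 peak of either replicate within 1000 bp, 2038 (90.8%) also had a Sox2 peak within 1000 bp. Among regions near Sox2 the Klf4 shares were 13.7 and 12.1%, and among those farther away 3.64 and 2.71%.

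Overlap with Klf4 in both replicates was found at 3 regions. One of them was also the strongest gained region of all, chr5:31014663-31015196, 534 bp wide with a fold enrichment of 24.7. It lay 199 bp from a Sox2 peak of replicate 1, 2671 bp from one of replicate 2 and 44270 bp from the nearest day 0 H3K27ac peak. The others were chr15:36859772-36861446 (fold enrichment 9.83), 1 and 10 bp from the Sox2 peaks, and chr14:117332613-117333117 (6.41), more than 5000 bp from them.

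After chr5:31014663-31015196, the next regions by fold enrichment were chr15:101219695-101221153 (21.7), which lay 9711 and 9927 bp from Sox2 and overlapped Klf4 in replicate 2, and a neighbouring pair on chromosome 11. In that pair, chr11:61766717-61768292 had a fold enrichment of 20.6 and lay 301 and 213 bp from the Sox2 replicates, and chr11:61770244-61771802 had 20.2 and lay 1269 and 1256 bp away. The fifth, chr1:134162441-134163780 (19.8), was 948 bp from Sox2 of replicate 1 and 20 bp from Sox2 of replicate 2. The widest were chr16:32822959-32825445 (2487 bp, fold enrichment 15.3), chr7:26219848-26222186 (2339 bp, 14.4), chr10:80925095-80927240 (2146 bp, 11.8), chr13:99124192-99126289 (2098 bp, 10.6) and chr4:141780603-141782680 (2078 bp, 13.3). Of these 5 only the one on chromosome 10 lay within 1000 bp of Sox2, at 47 and 50 bp.

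Many gained regions had another day 2 peak nearby, though the like share of the other classes is not given here. Another day 2 H3K27ac peak stood within 1000 bp of 8346 of the 13286 regions (62.8%). That nearest peak was itself a gained region without Sox2 for 53.0% of them, a gained region with Sox2 for 34.6%, and a kept peak without or with Sox2 for 6.78 and 5.56%. Of all day 2 H3K27ac peaks, these classes made up 31.6, 17.9, 35.9 and 14.5% in the same order. Joined at distances of up to 12.5 kb, the regions formed 8579 domains, of which 5627 held a single region, 1939 held 2 and 1013 held 3 or more. The fullest domain, chr7:139955872-140008706, held 19 of them in 52.8 kb among 27 day 2 peaks, with 6 of the 19 within 1000 bp of Sox2. The domain chr4:19968674-19991796 held 13 in 23.1 kb, 8 of them near Sox2, and chr11:60990361-61045488 held 13 in 55.1 kb with 8 near Sox2 and 0 day 0 peaks inside it. By contrast, the 12 regions of chr14:41747687-41777007 included 2 near Sox2, and the 11 regions of chr5:142906845-142935237 included 0 near Sox2 and lay among 10 day 0 peaks.

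The regions were spread over all chromosomes, with an exception in their relation to Sox2 on chromosome X. Chromosome Y held only 3 of them among 6 day 2 peaks, and neither Sox2 list had a peak there. On the 19 autosomes they made up 26.9% (chromosome 19) to 35.3% (chromosome 16) of the day 2 peaks, and 67.2% (chromosome 17) to 80.2% (chromosome 13) of them lay within 1000 bp of Sox2. Chromosome X had 272 among 790 day 2 peaks, or 34.4%, but only 132 of the 272 (48.5%) lay within 1000 bp of Sox2. Just 11 gained peaks there overlapped Sox2, or 1.39% of the day 2 peaks, against 13.9 to 22.0% on autosomes. The regions without Sox2 thus were 96.1% of the gained peaks of chromosome X, and 59.3 to 68.3% on autosomes. The Sox2 lists held 275 peaks of chromosome X in replicate 1 and 591 in replicate 2, fewer than the 1069 and 1335 of chromosome 19. The part of this low number in the X-linked shares was not tested.

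**Figure D5:**
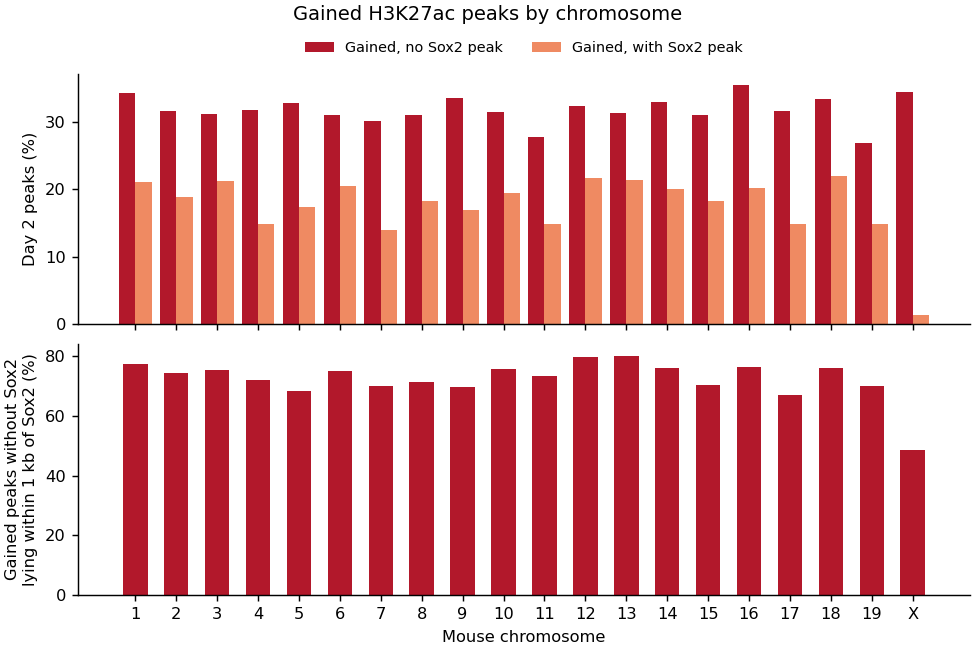
Upper panel, share of day 2 H3K27ac peaks per chromosome (y axis, percent) gained without (red) or with (orange) a Sox2 peak. Chromosome Y, with 6 day 2 peaks, is not drawn. Lower panel, share of the gained regions without Sox2 that lay within 1 kb of a Sox2 peak (y axis, percent); chromosome X stands at 48.5% against 67.2 to 80.2% on autosomes.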

How the data were processed

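Of the 33 samples, the 6 ChIP-seq peak lists were used. The 22 RNA-seq libraries, whose gene counts carry no mm9 positions, and the 5 inputs were not used here, so the planned tests of linked genes and of sequence motifs were not run. Per the submitters' processing notes, CASAVA 1.8.4, Bowtie2 and MACS2 were used with build mm9; the calling thresholds are not given in the sources used here. The deposited lists hold, per sample, the authors' fold enrichment as a linear ratio, and -log10 p and -log10 q values (p-values and q-values of MACS2, as deposited). All peaks of the H3K27ac and Sox2 lists had q under 0.05, whereas most Klf4 peaks did not. Read depth is unknown, since the files give no counts, and a peak can be missed at low depth. The day 0 H3K27ac list held 63795 peaks with a maximum -log10 q of 358, and the day 2 list 42025 with 107, so the day 0 list reached higher significance.

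Peaks on unplaced sequence (29 of day 2) were dropped. Overlap meant at least 1 bp, and distance runs between the nearest edges. Intervals were handled in Python 3.11.15 with numpy 2.4.6, pandas 2.3.3 and scipy 1.17.1 and checked on simulated intervals. Shares have exact (Clopper-Pearson) 95% intervals. The regions named are the 5 highest in fold enrichment, the 5 widest, the 5 fullest domains and those under both Klf4 replicates. The Sox2-flanked pairs and the regions far from Sox2 were ranked after their values were seen. The regions, and the choice of what to describe, were set with earlier results of these data known.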

Additional observations from a re-analysis of the deposited data

How the results depend on the processing

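How many gained regions without Sox2 there are depends on what counts as overlap. The number and its share of day 2 peaks became 2985 (7.10%) when a day 0 or Sox2 peak within 1000 bp also removed a region, 20920 (49.8%) when only an overlap over at least 50% of the day 2 peak did, and 4749 (18.3%) among day 2 peaks with -log10 q of at least 5. Asking -log10 q of at least 5 from the day 0 and Sox2 peaks gave 35.9%, and Sox2 regions of both replicates alone 34.6%. With a single Sox2 replicate left out, the share lay between 35.0 and 36.9%. The share within 1000 bp of Sox2 was 73.1%. It became 67.1% at 500 bp, 74.6% for regions with -log10 q of at least 5, 61.6% for Sox2 peaks with -log10 q of at least 5, 55.1% for Sox2 regions of both replicates, and 63.7 to 67.4% with a Sox2 replicate left out. These alternatives were chosen after seeing the data. Kept regions without Sox2 had 27.9% in the main setting, 24.7% at -log10 q of at least 5, 17.3% with Sox2 peaks of at least 5, 14.4% with Sox2 regions of both replicates and 21.9 to 23.9% with a replicate left out, below the gained regions each time.

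The share of regions under a Klf4 peak of either replicate was 0.580%. It became 16.9% within 1000 bp, 0.294% where at least 50% of the Klf4 peak had to lie inside and 1.07% for regions with -log10 q of at least 5, and 0.271 to 0.331% with a Klf4 replicate left out. No Klf4 peak reached a -log10 q of 5, so that alternative gave no value. At -log10 q of at least 5 the median fold enrichment was 6.78 and the median width 414 bp, and with a Sox2 replicate left out the median fold enrichment was 5.29. The median distance to day 0 peaks of at least 5 was 14372 bp. The domains numbered 9433 when joined at up to 5 kb. No paired analysis was possible because H3K27ac has 1 sample per day, so no result comes from a test and there is no fit to which a block could be added. Depth limits the gain: a peak called on day 2 only may have lain under the threshold on day 0.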
